A study of Mus musculus with 8 samples.

Results

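Receptors for cytokines and blood growth factors were followed in the whole blood of mice after repeated restraint stress. The list held 35 genes, taken by symbol and grouped by where the receptor is best known: 9 lymphoid, 8 myeloid and 18 shared chains. Of these, 34 had at least 1 probe set that the platform annotation gives to that gene alone, and together they had 70 probe sets of the 45101 on the array. Il2rg, the common gamma chain, had none in the tables used and was not analysed here. RST mice were female C57BL/6J animals aged 6 to 8 weeks that were held in restrainers for 6 h per day, and their blood was taken on day 7. Control mice were of the same strain, sex and age, were not restrained, and had no access to food or water while the RST mice were held. There were 4 RST mice and 4 control mice, each with its own array, and no mouse carried an engineered allele or received a drug. Blood RNA mixes all circulating cells, so fewer cells of a type, less RNA per cell and a larger share of RNA from other cells cannot be told apart.

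Cytokine receptors are built from a small number of chains used in combination. A private chain binds the ligand, and a shared chain such as the common beta chain or gp130 carries the signal inside, mostly through Janus kinases and STAT factors. The IL-1 and TNF receptors signal through adaptor proteins instead, and the TGF-beta receptors are themselves kinases. In blood, IL-7 receptor is a survival receptor of lymphocytes, whereas the receptors for G-CSF and GM-CSF act on granulocytes and monocytes.

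The values are log2 intensities, and a difference is RST minus control on that scale. A probe set was tested when it lay above its array's median in at least 2 of the 4 arrays of a group. This left 25084 probe sets and 11762 genes, each gene read at its brightest tested probe set. The median gene differed by -0.24. The arrays carried blood transcripts, with red cell markers at a mean level of 9.61 to 10.41 in RST mice and 9.01 to 9.80 in control mice. The array of RST mouse 4 was dim, with a 75th percentile of 4.50, against 5.05 to 5.18 in the other RST mice and 5.13 to 5.37 in control mice, and it held the lowest of the 8 values for 41.5% of tested probe sets. Spiked hybridization controls averaged 12.35 in RST mouse 2 and 12.71 to 12.73 in the other RST mice, against 11.93 and 11.90 in control mice 1 and 2 and 12.60 and 12.74 in the remaining control mice. No probe set passed an adjusted p of 0.05 with a 1.5-fold change (0% of 25084), and the smallest adjusted p was 0.32. With an unadjusted p, 3337 probe sets (13.3%) passed, and 35 were called when limma's prior was trended and robust (0.14%).

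Of the 34 receptor genes, 30 were tested. Il9r, Il3ra, Flt3 and Kit stayed below the intensity filter. Il2ra passed it only through RST mice and Il1r1 only through control mice. The mean was lower in RST mice for 25 tested receptors and higher for 5, where 67.6% of all tested genes had a lower mean. The median difference over the tested receptors was -0.33, or -0.084 relative to the median gene, and 18 of the 30 lay below the median gene. None passed the adjusted threshold. With an unadjusted p and a 1.5-fold change, 2 were lower in RST mice, Il7r and Il27ra, against a background of 12.8% of genes, and 0 were higher, against 2.8%. The same 2 receptors had groups that did not overlap, with RST mice lower, against a background of 6.57% of genes, and no receptor had all RST mice higher, against 2.37%. The first share lies under its background and the second beside it. Quantile normalization of the arrays left 17 receptors lower and 13 higher, and scaling to the hybridization controls left 28 lower and 2 higher, so the side of 0 of the smaller differences depends on the scaling. Without RST mouse 2 and control mice 1 and 2, whose hybridization controls were low, Il7r differed by -0.69 (unadjusted p 0.061) and Il27ra by -0.76 (unadjusted p 0.095). RST mouse 4 had the lowest of the 8 values in 22 of the 30 receptors, and RST mouse 2 had the highest of the RST values in 23.

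**Figure D1:**
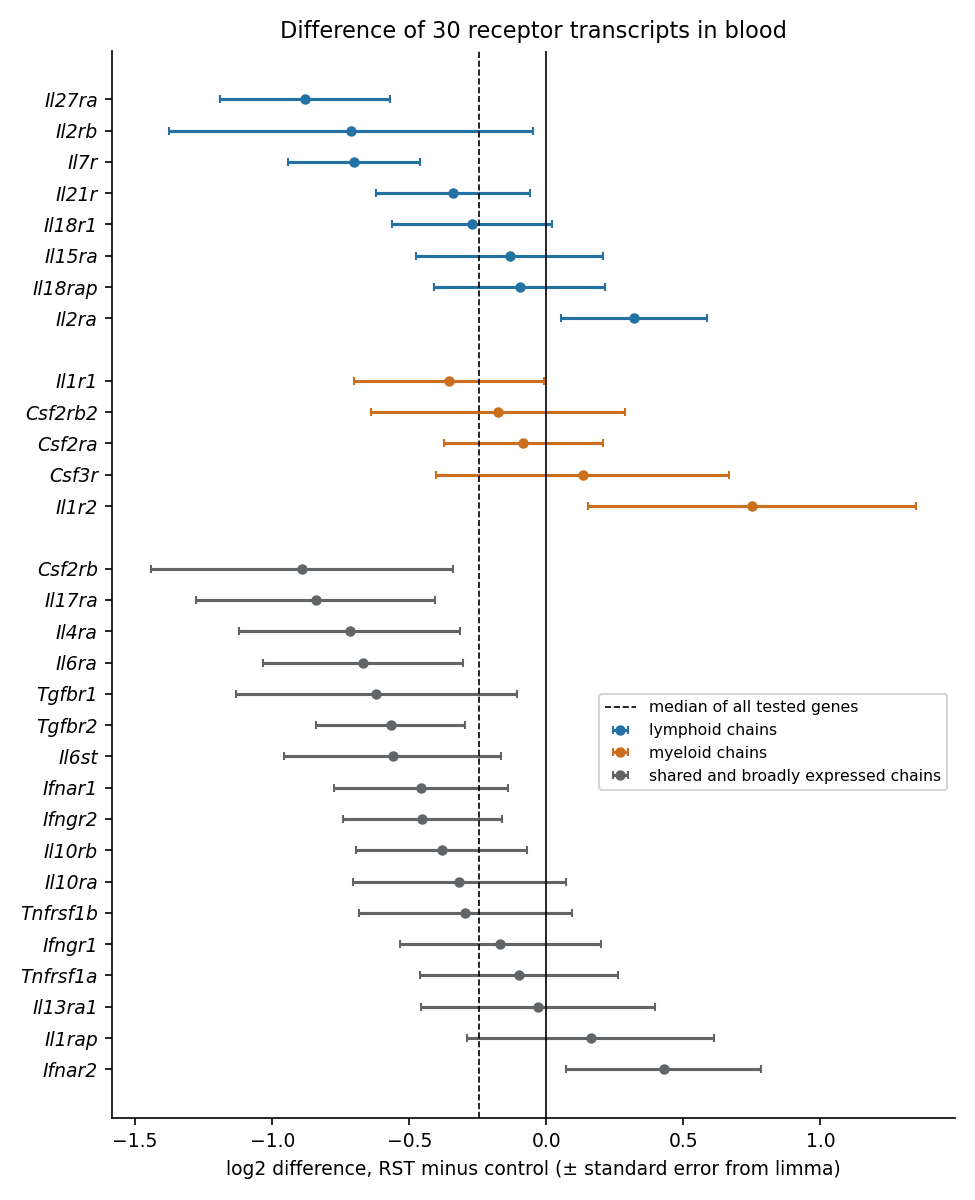
Difference in log2 intensity, RST minus control, of each tested receptor at its brightest probe set, with bars for the standard error, ordered within the lymphoid, myeloid and shared groups. Most points lie left of 0, the dashed line marks the median gene at -0.24, and Il7r and Il27ra are the pair whose groups do not overlap.

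Among the lymphoid receptors, 8 of 9 were tested. RST mice had the lower mean for 7 and the higher for 1, and the lymphoid median was -0.31, or -0.061 relative to the median gene. Il7r encodes the alpha chain of the IL-7 receptor, which naive and memory T cells need to survive. It read 8.21, 8.52, 8.45 and 8.33 in RST mice 1 to 4, against 9.31, 8.98, 8.84 and 9.19 in control mice 1 to 4. Every RST mouse lay below every control mouse. The difference was -0.70 (SE 0.24, n = 4 each), or 1.63-fold lower in RST mice, with an unadjusted p of 0.014 and an adjusted p of 0.32 in limma. The exact two-sided permutation p was 0.029, the smallest that 4 against 4 allows. With each array set relative to its median gene, the groups overlapped: Il7r then stood at -0.48, -0.33, -0.30 and 0.09 in RST mice, against 0.34, -0.01, 0.10 and 0.43 in control mice. Only RST mouse 4, the dim array, reached into the control range. A dimmer probe set of Il7r read 4.69, 6.44, 5.24 and 5.22 in RST mice, against 6.69, 6.18, 5.56 and 6.44 in control mice, a difference of -0.82 with an unadjusted p of 0.059 and an adjusted p of 0.38. RST mouse 2 was as high there as control mouse 4.

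The promoter of Il7r is shown because Il7r is 1 of the 2 receptors whose groups were apart. It spans 250 bases before to 50 after the start of the RefSeq gene, at chr15:9529827-9530126 on the minus strand of GRCm38.p6. Capitals mark the match to TTCNNNGAA, the STAT site, searched on both strands.
Il7r: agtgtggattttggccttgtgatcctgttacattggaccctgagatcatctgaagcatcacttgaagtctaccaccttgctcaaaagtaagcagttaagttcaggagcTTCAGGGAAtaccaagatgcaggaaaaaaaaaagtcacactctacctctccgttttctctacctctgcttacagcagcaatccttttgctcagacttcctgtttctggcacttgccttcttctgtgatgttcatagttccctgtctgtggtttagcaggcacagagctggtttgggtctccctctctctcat
Over the 35 promoter sequences found for 29 of the listed genes, 8 held TTCNNNGAA, against 8.3% of the 32851 promoters in the table. They belong to Il7r, Il18r1, Il1r2, Csf2rb2, Ifnar1, Ifnar2, Tnfrsf1a and Tnfrsf1b, whose differences lay on both sides of 0. The core hexamer of the glucocorticoid response element, AGAACA, was in 4 of the 35, those of Il2ra, Il2rg, Il1r1 and Il13ra1, against 19% of all promoters. A match describes letters in a window and is not a measured site.

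Il27ra encodes the private chain of the IL-27 receptor, which pairs with gp130 on T cells and other leukocytes. It read 6.38, 6.65, 6.74 and 5.60 in RST mice, against 7.31, 7.57, 7.08 and 6.92 in control mice. The groups did not overlap, and the lowest value was that of RST mouse 4. The difference was -0.88 (SE 0.31, n = 4 each), or 1.84-fold lower in RST mice, with an unadjusted p of 0.015 and an adjusted p of 0.32. Relative to the median gene of each array, Il27ra was the 1 receptor with every RST mouse below every control mouse, at -0.36, -0.26, -0.07 and -0.69 in RST mice, against 0.30, 0.52, 0.29 and 0.11 in control mice. On that scale 4.43% of genes were lower and 5.41% higher without overlap.

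T cell markers were lower alongside both receptors. Their mean level ran from 6.09 to 7.19 over RST mice and from 7.13 to 7.82 over control mice. At an unadjusted p with a 1.5-fold change, 6 of 9 tested markers were lower, where 12.8% of all tested genes were. Among them was Cd3d, a chain of the T cell receptor complex, with means of 7.77 in RST mice and 8.77 in control mice. Set against that list within each array, Il7r stood at -0.24, -0.30, 0.12 and 0.60 in RST mice and at -0.15, -0.19, 0.07 and 0.09 in control mice. The groups overlapped, and the difference was 0.088. Il27ra against the same list differed by -0.087 with overlap, and against B cell markers by 0.20 with overlap. B cell markers ran from 7.62 to 7.87 in RST mice and from 8.23 to 9.23 in control mice. By the same threshold 8 of 8 tested markers were lower, against the same 12.8% of genes. The part of these cells in the receptor differences was not tested.

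The chains for IL-2, IL-15 and IL-21 overlapped between the groups. Il2rb, the beta chain of the IL-2 and IL-15 receptors, read 6.33, 7.09, 6.90 and 3.44 in RST mice, against 7.11, 6.75, 6.30 and 6.45 in control mice. Only RST mouse 4 stood below the control range, so the difference of -0.71 (SE 0.66, adjusted p 0.63) became 0.12 without it. Il2ra, the alpha chain that gives the high-affinity IL-2 receptor and is known as CD25, was dim, at 3.55, 3.44, 3.39 and 2.69 in RST mice, against 2.98, 2.86, 2.90 and 3.05 in control mice. RST mice 1 to 3 were above all control mice, and the difference was 0.32 (SE 0.27, adjusted p 0.58). Relative to the median gene Il2ra was the 1 receptor with all RST mice higher, but it passed the filter only through RST mice, which favours a higher RST level. Il21r, the private chain of the IL-21 receptor of B, T and NK cells, differed by -0.34, from 4.84 to 5.49 in RST mice and from 5.17 to 6.02 in control mice. Il15ra, which presents IL-15 to neighbouring cells, was dim and differed by -0.13 with wide overlap.

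The IL-18 receptor of NK and T cells has a ligand-binding chain, Il18r1, and an accessory chain, Il18rap. Il18r1 read 5.73, 5.86, 5.59 and 4.93 in RST mice, against 5.91, 6.18, 5.47 and 5.64 in control mice, a difference of -0.27. Il18rap read 6.59, 7.18, 6.56 and 5.73 in RST mice, against 6.53, 6.69, 6.62 and 6.61 in control mice, a difference of -0.10. Control mice were nearly alike in Il18rap, and RST mice lay on both sides of them. NK cell markers were mostly lower, at 6.45 to 7.48 over RST mice and 7.21 to 7.94 over control mice, with overlap. At an unadjusted p with a 1.5-fold change, 5 of 7 tested were lower, where 12.8% of all tested genes were. Prf1 had a higher mean in RST mice, by 0.19. Relative to the median gene the NK average overlapped too, from -0.40 to 0.03 in RST mice and from -0.14 to 0.35 in control mice. Set against that list, Il18r1 was higher in every RST mouse, at 0.51, 0.04, 0.13 and 0.14, than in any control mouse, at -0.25, -0.10, -0.08 and -0.40. This was the 1 of 9 such receptor and marker differences without overlap, formed after the values were seen, and it carries no test.

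**Figure D2:**
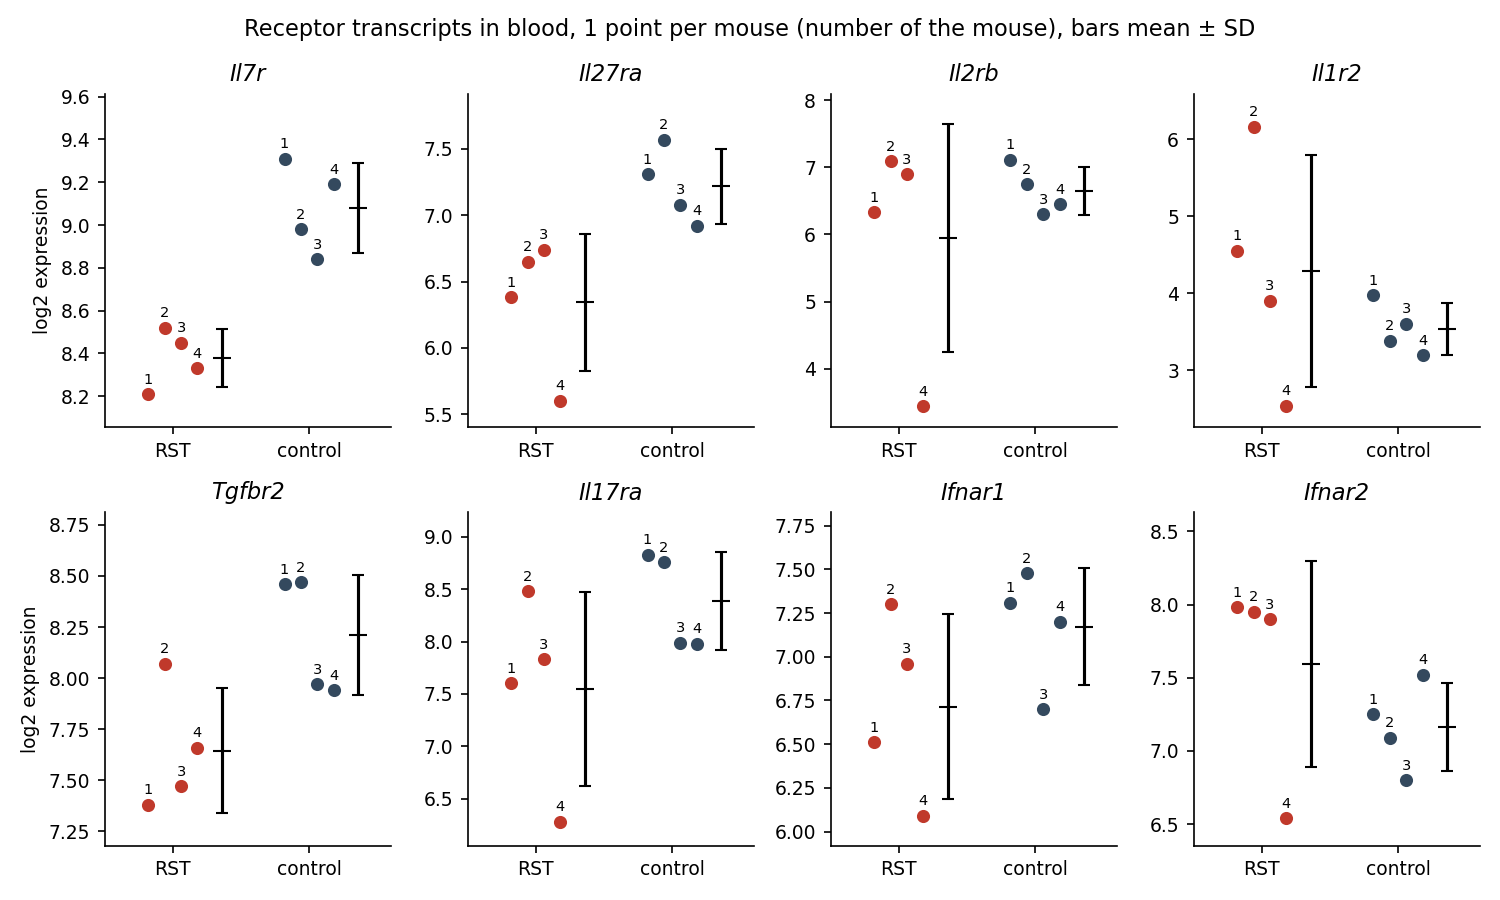
Log2 intensity in each mouse, RST left and control right, for receptors the text turns on, with bars for mean ± SD and each point numbered by its mouse. Il7r and Il27ra show RST points below all control points, Il1r2 shows RST mouse 2 at 6.16 far above the other RST mice, and Il2rb shows RST mouse 4 at 3.44 far below them.

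Among the myeloid receptors, 5 of 8 were tested. RST mice had the lower mean for 3 and the higher for 2, and the myeloid median was -0.084, or 0.16 relative to the median gene. Il1r2 encodes the decoy IL-1 receptor of neutrophils and monocytes, which binds IL-1 without signalling. It read 4.55, 6.16, 3.90 and 2.54 in RST mice, against 3.97, 3.38, 3.60 and 3.19 in control mice. RST mice spanned a far wider range than control mice and lay on both sides of them. The difference was 0.75 (SE 0.60, n = 4 each), the largest positive one among the tested receptors, with an unadjusted p of 0.24 and an adjusted p of 0.57. It was 0.13 without RST mouse 2 and 1.33 without RST mouse 4.

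The promoter of Il1r2, at chr1:40085843-40086142 on the plus strand of GRCm38.p6 in RefSeq, is shown as that of the receptor with the largest positive difference at its brightest probe set. Capitals mark matches to TTCNNNGAA and to the E-box CACGTG, which was in 3 of the 35 promoters and in 7.15% of all.
Il1r2: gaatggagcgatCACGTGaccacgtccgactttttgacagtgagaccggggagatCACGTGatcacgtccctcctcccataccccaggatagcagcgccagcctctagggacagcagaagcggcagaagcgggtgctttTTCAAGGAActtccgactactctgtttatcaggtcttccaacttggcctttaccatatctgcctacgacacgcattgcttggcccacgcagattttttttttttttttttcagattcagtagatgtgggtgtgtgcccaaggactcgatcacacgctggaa
The promoter holds the E-box at 2 places and the STAT letters once. The adjacent gene, Il1r1, held neither.

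Il1r1 encodes the signalling IL-1 receptor. It was dim, at 3.61, 2.77, 2.30 and 3.13 in RST mice, against 2.58, 3.62, 3.51 and 3.50 in control mice. The lowest control value, in mouse 1, lay inside the RST range, and the difference was -0.36 (SE 0.35, adjusted p 0.64). Csf3r, the G-CSF receptor that drives neutrophil production, read 6.16, 7.85, 6.94 and 4.89 in RST mice, against 6.25, 6.89, 6.48 and 5.71 in control mice. RST mice held both the highest and the lowest value. The difference of 0.13 (SE 0.54, adjusted p 0.92) moved between -0.33 and 0.65 as single mice were left out. Csf2ra, the private chain of the GM-CSF receptor, differed by -0.084, and Csf2rb2, the IL-3 beta chain found in mice, by -0.18.

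Neutrophil markers varied widely within both groups. Their mean level was 6.46 to 8.33 over RST mice and 7.03 to 9.11 over control mice. At an unadjusted p with a 1.5-fold change, 3 of 8 tested markers were lower, where 12.8% of all tested genes were. These were the granule protein genes Ngp, Camp and Ltf, at -2.98, -2.37 and -1.79, also with overlap. Control mouse 2 read 4.30, 3.88 and 4.29 in them, inside the RST range, and the remaining control mice were above all RST mice. S100a8 and S100a9 differed by -0.53 and -0.55, whereas Mmp8, Mmp9 and Cxcr2 differed by 0.060, 0.041 and 0.35, all with overlap. The average of the list therefore rests largely on the 3 granule genes. Set against that list, Il1r2 stood at 1.77, 1.51, 0.61 and -0.45 in RST mice and at -1.45, 0.03, -0.98 and -1.05 in control mice. RST mice 1 to 3 were above all control mice, and RST mouse 4 was not. Csf3r against the list differed by 1.10 with overlap. Monocyte markers ran from 5.40 to 6.80 in RST mice and from 5.48 to 7.42 in control mice. By the same threshold 2 of 6 tested markers were lower, against the same 12.8% of genes. The part of these cells in the receptor values was not tested.

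The growth factor receptors of progenitor cells were near the bottom of the scale. Kit, the stem cell factor receptor, averaged 1.73 ± 0.16 in RST mice and 2.05 ± 0.14 in control mice (SD, n = 4 each). Its highest RST value was 1.87 and its lowest control value 1.96, so the groups did not overlap. The other Kit probe set differed by -0.037 with overlap, at 1.76 ± 0.047 in RST mice and 1.80 ± 0.20 in control mice (SD, n = 4 each). Neither passed the filter, and the adjusted p of the first was 0.53 in the fit of all probe sets without a filter, where 3.55% of probe sets were lower without overlap. Flt3, the FLT3 ligand receptor, stood at 4.57 in RST mouse 2 and between 2.44 and 3.53 in the other 7 mice. Il3ra, the private IL-3 receptor chain, ran from 2.03 to 2.71 in RST mice and from 2.49 to 2.91 in control mice. Il9r, the IL-9 receptor, ran from 1.51 to 1.84 in RST mice and from 1.72 to 1.91 in control mice.

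**Figure D3:**
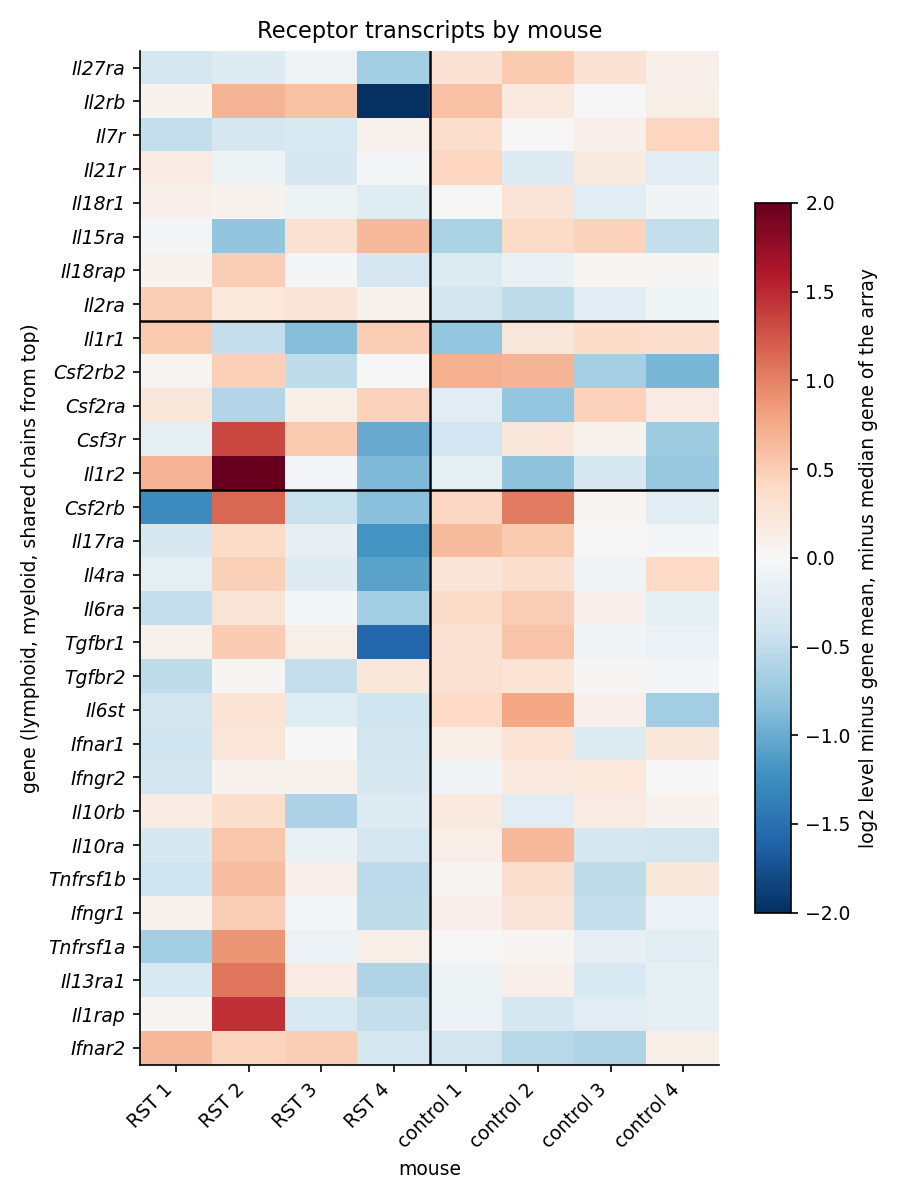
Log2 intensity of each tested receptor in each mouse minus its mean over the 8 mice and minus the array's median gene, RST columns left and control columns right, colour scale capped at 2 log2 units either side of 0. Averaged over the 30 receptors, RST mouse 2 stands highest at 0.40 and RST mouse 4 lowest at -0.43, and the control mice lie between.

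Among the shared chains, 17 of 18 were tested. RST mice had the lower mean for 15 and the higher for 2, and the median of the shared chains was -0.45, or -0.21 relative to the median gene. Csf2rb, the common beta chain through which GM-CSF, IL-3 and IL-5 signal, had the lowest difference of all tested receptors. It read 5.77, 8.36, 6.67 and 5.77 in RST mice, against 7.73, 8.39, 7.14 and 6.89 in control mice. RST mice 1, 3 and 4 were below all control mice, and RST mouse 2 stood just under the highest control mouse. The difference was -0.89 (SE 0.55, n = 4 each), with an unadjusted p of 0.13 and an adjusted p of 0.46. Leaving out RST mouse 2 gave -1.47, with an adjusted p of 0.18. Csf2rb and its near-identical neighbour Csf2rb2 share 1 probe set that was not used, and probes could still read both, so each is uncertain.

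Il17ra, the common chain of the IL-17 receptors, read 7.60, 8.48, 7.83 and 6.28 in RST mice, against 8.83, 8.76, 7.99 and 7.98 in control mice. RST mouse 2 alone lay inside the control range. The difference was -0.84 (SE 0.44), with an unadjusted p of 0.078 and an adjusted p of 0.40, and it was -0.42 without RST mouse 4. Tgfbr2, the ligand-binding TGF-beta receptor kinase, read 7.38, 8.07, 7.47 and 7.66 in RST mice, against 8.46, 8.47, 7.97 and 7.94 in control mice. Again RST mouse 2 alone overlapped, and the difference was -0.57 (SE 0.27), with an unadjusted p of 0.060 and an adjusted p of 0.38. Tgfbr1, the partner kinase, read 6.38, 6.96, 6.48 and 4.27 in RST mice, against 6.86, 7.17, 6.29 and 6.25 in control mice. Its difference of -0.62 was -0.036 without RST mouse 4. A dimmer probe set of Tgfbr1 read 5.50, 5.31, 5.15 and 5.12 in RST mice, against 6.17, 5.39, 5.74 and 6.16 in control mice. There the groups overlapped, and the difference was -0.60 (SE 0.27), with an unadjusted p of 0.048 and an adjusted p of 0.37 in limma. The dimmest tested probe set differed by -0.30 with overlap.

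The IL-4 and IL-6 receptors also had lower means. Il4ra, the alpha chain of the IL-4 and IL-13 receptors, read 6.01, 6.83, 6.00 and 4.68 in RST mice, against 6.73, 6.82, 6.18 and 6.66 in control mice, a difference of -0.72 (SE 0.40, adjusted p 0.43) that was -0.32 without RST mouse 4. Il6ra, which binds IL-6, read 6.86, 7.77, 7.37 and 6.21 in RST mice, against 7.99, 8.15, 7.51 and 7.23 in control mice, a difference of -0.67 (SE 0.36, adjusted p 0.42). RST mice 1 and 4 were below all control mice in both. Il6st, or gp130, the signalling chain of the IL-6 family, differed by -0.56 (SE 0.40), from 5.44 to 6.73 in RST mice and from 5.67 to 7.37 in control mice. Il13ra1, the IL-13 receptor chain that pairs with Il4ra, differed by -0.032, with RST mouse 2 at 6.22, above all control mice, and RST mouse 4 at 3.94, below them.

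Ifnar2 and Ifnar1 are the 2 chains of the type I interferon receptor, and they lay on opposite sides of 0. Ifnar2 read 7.98, 7.95, 7.90 and 6.54 in RST mice, against 7.25, 7.09, 6.80 and 7.52 in control mice. RST mice 1 to 3 were above all control mice and RST mouse 4 was below them. The difference was 0.43 (SE 0.36, adjusted p 0.58), and leaving out RST mouse 4 gave 0.78, with an unadjusted p of 0.012 and an adjusted p of 0.36. Ifnar1 read 6.51, 7.30, 6.96 and 6.09 in RST mice, against 7.31, 7.48, 6.70 and 7.20 in control mice, a difference of -0.46 (SE 0.32, adjusted p 0.51) with overlap. Ifnar2 minus Ifnar1 within an array was 1.47, 0.65, 0.94 and 0.45 in RST mice, against -0.06, -0.39, 0.10 and 0.32 in control mice. Every RST mouse was above every control mouse, also RST mouse 4 with its dim array. The 2 levels come from different probes, so only the change of this gap can be read, and it was 0.89. The other tested probe sets of Ifnar2 differed by -0.052 and -0.30, on the other side of 0 from the brightest.

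The promoters of this pair are printed because the gap between the chains was wider in every RST mouse than in any control mouse. In GRCm38.p6 from RefSeq, that of Ifnar2 is at chr16:91372533-91372832 and that of Ifnar1 at chr16:91484965-91485264, both on the plus strand. Capitals mark matches to TTCNNNGAA and to the ETS core CCGGAAG, which was in 5 of the 35 promoters and in 8.86% of all.
Ifnar2: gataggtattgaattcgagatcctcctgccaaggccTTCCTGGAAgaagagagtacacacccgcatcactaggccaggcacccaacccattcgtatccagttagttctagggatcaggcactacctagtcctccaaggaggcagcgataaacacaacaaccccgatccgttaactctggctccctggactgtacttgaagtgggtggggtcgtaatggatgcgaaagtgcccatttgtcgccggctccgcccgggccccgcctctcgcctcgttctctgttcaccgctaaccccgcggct
Ifnar1: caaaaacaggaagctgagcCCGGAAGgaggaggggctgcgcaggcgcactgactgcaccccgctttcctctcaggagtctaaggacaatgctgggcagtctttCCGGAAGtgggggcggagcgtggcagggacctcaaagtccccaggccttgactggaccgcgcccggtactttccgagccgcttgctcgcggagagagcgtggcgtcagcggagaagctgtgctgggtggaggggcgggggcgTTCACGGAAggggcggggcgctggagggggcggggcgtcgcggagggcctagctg
Both held the STAT letters, and Ifnar1 held the ETS core as well. Neither held the paired core of the interferon regulatory factors, which was in 2 of the 35 promoters, those of Il1rap and Tnfrsf1b, and in 3.44% of all.

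Within-array differences were taken for 10 receptors with both chains tested, after the values were seen, so they are a description. The groups were apart in 2 of the 10, the type I interferon receptor and Il13ra1 minus Il4ra, the type II IL-4 receptor. The share of other gene pairs that would be apart was not taken, so this count has no background. Il13ra1 minus Il4ra stood at -1.33, -0.61, -0.79 and -0.74 in RST mice, against -1.57, -1.43, -1.44 and -1.78 in control mice, a change of 0.69. It rests on the brightest probe set of Il4ra, at -0.72, whereas the other tested probe set of that gene differed by -0.070. The other 8 overlapped, among them Il6st minus Il6ra, with a change of 0.11, Tgfbr1 minus Tgfbr2, with -0.055, and the interferon gamma chains, Ifngr2 minus Ifngr1, with -0.28.

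At their brightest probe sets, interferon gamma, IL-10 and TNF receptors differed by less than 0.5 log2 units. Ifngr2, the signalling chain for interferon gamma, differed by -0.45 and Ifngr1, its ligand-binding partner, by -0.17. For IL-10, Il10rb differed by -0.38 and Il10ra by -0.32. Tnfrsf1b, the TNF receptor of leukocytes, differed by -0.30 and Tnfrsf1a, the widely expressed death-domain receptor, by -0.10. The other tested probe sets of Ifngr2, Il10rb and Tnfrsf1b differed by -0.42, 0.15 and 0.66. Il1rap, the accessory chain of the IL-1 and IL-33 receptors, differed by 0.16, with RST mouse 2 at 6.25 and the other RST mice at 3.70 to 4.66, against 4.47 to 4.78 in control mice. A dimmer tested probe set of Il1rap differed by 0.88 (SE 0.43, adjusted p 0.38), from 2.44 to 4.54 in RST mice and from 2.18 to 3.21 in control mice. It passed the filter through RST mice only, which favours a higher RST level. At the brightest probe sets, RST mouse 2 held the highest of the RST values in each of these 7 genes.

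Some receptor genes are neighbours. In the RefSeq gene order, Ifnar2, Il10rb, Ifnar1 and Ifngr2 stand in a row on chromosome 16, with differences of 0.43, -0.38, -0.46 and -0.45. Ifnar2 alone of the 4 had a higher mean in RST mice. On chromosome 1, Il1r2 and Il1r1 are adjacent, at 0.75 and -0.36, and so are Il18r1 and Il18rap, at -0.27 and -0.10. On chromosome 15, Csf2rb2 and Csf2rb are adjacent, at -0.18 and -0.89.

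Reading all 51 tested probe sets of the receptors, 39 had a lower and 12 a higher mean in RST mice, against 65.3% of all tested probe sets with a lower mean. With an unadjusted p and a 1.5-fold change, 4 were lower, against a background of 10.4% of probe sets, and 1 was higher, against 2.89%. The groups did not overlap for 3 with RST mice lower, against 5.76%, and for 0 with RST mice higher, against 2.23%. Of 17 receptors with several tested probe sets, 12 had all on the same side of 0 and 5 did not, namely Ifnar2, Il10rb, Il13ra1, Il18rap and Tnfrsf1b. A dimmer probe set of Ifnar1 read 3.43, 3.11, 3.05 and 3.29 in RST mice, against 5.34, 4.23, 4.13 and 4.56 in control mice. The groups were far apart, with a difference of -1.34 (SE 0.31), an unadjusted p of 0.001 and an adjusted p of 0.32. It passed the filter through control mice only, which favours a lower RST level, and the brighter probe set differed by -0.46. A dimmer probe set of Tnfrsf1b went the other way from its brighter one, at 4.26, 3.85, 4.01 and 3.34 in RST mice, against 2.94, 3.16, 3.32 and 3.39 in control mice, a difference of 0.66 (SE 0.27, adjusted p 0.34), and it passed through RST mice only. Probe sets can read different transcript ends of a gene, which was not tested.

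**Figure D4:**
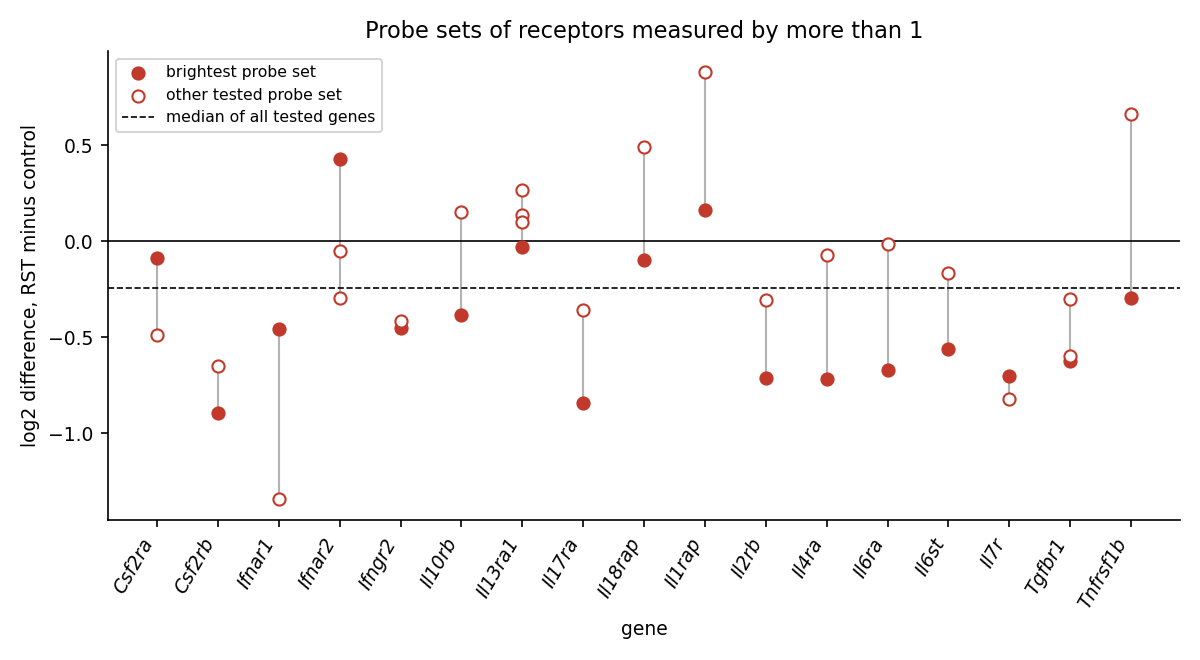
Difference in log2 intensity, RST minus control, of every tested probe set of the 17 receptors that have more than 1, with genes along the axis and the brightest probe set filled. The dashed line marks the median gene. Probe sets of 5 receptors lie on both sides of 0, and the lowest point is the dimmer probe set of Ifnar1 at -1.34.

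Genes that act with these receptors were read from further lists. Of 11 Janus kinases and STAT factors, 10 were tested, 9 with a lower and 1 with a higher mean in RST mice, and 3 were lower at an unadjusted p. Over all tested genes, 67.6% had a lower mean and 12.8% were lower at an unadjusted p, which is the background for each of these lists. Tyk2, the kinase bound to Ifnar1, differed by -0.81 (SE 0.31, adjusted p 0.33), and Stat4, used by IL-12, by -1.12 (SE 0.47, adjusted p 0.35). Of 14 adaptors of IL-1, TNF and TGF-beta receptors, 11 were tested, 10 with a lower mean and 1 lower at an unadjusted p, Smad7, an inhibitor of TGF-beta signalling, at -1.03 (SE 0.43, adjusted p 0.35). Of 19 negative regulators, 18 were tested, 13 with a lower and 5 with a higher mean, and 1 was lower at an unadjusted p, the phosphatase gene Ptpn6, at -0.70 (SE 0.32, adjusted p 0.37). The median difference was -0.31 over the kinases and STAT factors, -0.59 over the adaptors and -0.24 over the negative regulators, where the median gene stood at -0.24.

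Ligands were often too dim to test, with 12 of 29 passing the filter, 11 with a lower mean. Il18, the IL-18 gene, read 2.93, 3.13, 2.67 and 3.18 in RST mice, against 4.08, 5.17, 3.40 and 3.20 in control mice, a difference of -0.98 (SE 0.40, adjusted p 0.34). It passed the filter through control mice only. Of 29 other cytokine receptors, 17 were tested, 12 with a lower and 5 with a higher mean. The 1 that passed at an unadjusted p was Acvr1b, an activin receptor kinase, at -0.98 (SE 0.44, adjusted p 0.36). Il5ra, the private IL-5 receptor chain of eosinophils, differed by -0.58 (adjusted p 0.39). Eosinophil and basophil markers ran from 2.91 to 3.43 in RST mice and from 3.69 to 4.92 in control mice, but 4 of the 6 tested, Prg2, Epx, Siglecf and Cpa3, passed the filter through control mice only. Relative to the median gene the eosinophil and basophil average overlapped, at -0.74 to -0.24 in RST mice and -0.29 to 0.97 in control mice. None of the genes in these lists passed the adjusted threshold.

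Averaged by role and set relative to the median gene, the receptors overlapped between the groups. The lymphoid average was 0.00, 0.00, 0.04 and -0.36 in RST mice, against 0.05, 0.05, 0.08 and -0.02 in control mice. The myeloid average was 0.26, 0.57, -0.15 and -0.19 in RST mice, against -0.17, -0.08, -0.02 and -0.38 in control mice. The shared average was -0.27, 0.55, -0.11 and -0.54 in RST mice, against 0.15, 0.27, -0.14 and -0.07 in control mice. RST mouse 2 was the highest and RST mouse 4 the lowest of the 8 in the shared average. The marker averages of B cells, T cells, platelets and red cells were apart on the same scale. B cell markers ran from -0.64 to -0.11 in RST mice and from -0.04 to 0.72 in control mice. Red cell markers ran from 0.21 to 0.52 in RST mice and from -1.04 to -0.02 in control mice. Platelet markers ran from 0.05 to 0.36 in RST mice and from -0.42 to -0.10 in control mice. Without the median gene taken off, the mean levels of T cell, platelet and red cell markers overlapped between the groups. Platelet markers then ran from 9.69 to 10.15 in RST mice and from 9.57 to 9.89 in control mice. The highest relative platelet average, 0.36, was that of RST mouse 4, whose median gene stood at -0.49.

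**Figure D5:**
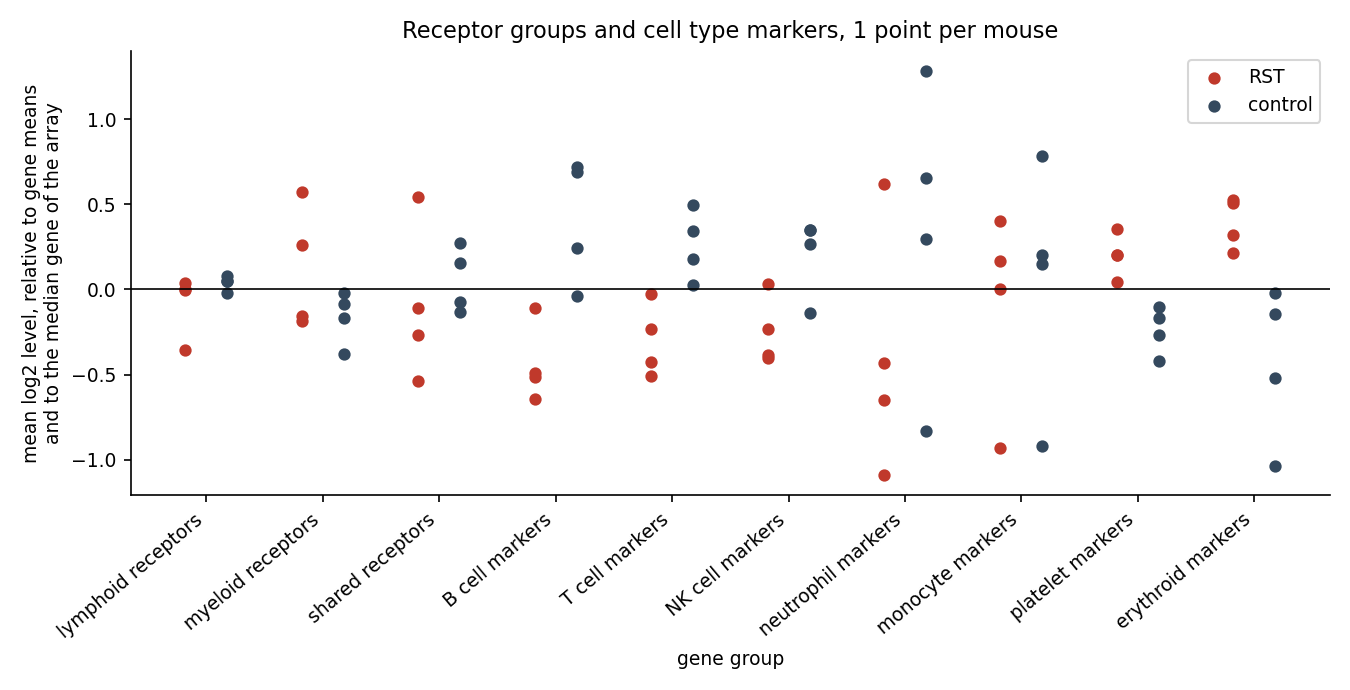
Mean log2 level of the lymphoid, myeloid and shared receptors and of blood cell marker lists in each mouse, relative to the array's median gene and centred over the 8 mice, RST left and control right. The 3 receptor averages overlap between the groups, whereas those of B cell, T cell, platelet and red cell markers do not.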

How the data were processed

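Whole blood RNA of 4 RST and 4 control mice was labelled from 30 ng and hybridized to Affymetrix Mouse Genome arrays, 1 array per mouse. The authors deposited 1 table of log2 intensity values per probe set, described as already background-corrected, normalized between arrays and summarized. The submitters' processing notes name RMA with Expression Console 1.2.0.20 and Partek, and the study's methods name GSRMA in Partek. Array medians still ran from 3.19 to 3.46 and 75th percentiles from 4.50 to 5.37, so the arrays do not share 1 distribution. The side of 0 of small differences depends on the scaling. Nothing in the labels ties a mouse to a litter, cage or batch. The study's methods assigned whole cages at random to RST or control, so mice of a group may share a cage. An effect of the cage could then not be told apart from restraint. The p-values measure the spread between 4 mice per group, and this number limits the precision. Probe sets were named by the platform annotation, in which 34958 have 1 gene symbol, 932 several and 9211 none. Of the probe sets with 1 symbol, 34754 were matched by Entrez identifier. Probe sets of the array's own controls were left out.

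The comparison of RST with control used limma 3.58.1 (lmFit, then eBayes at its default prior; R 4.3.3), with Benjamini-Hochberg adjustment over all 25084 tested probe sets. Calls were made at adjusted p below 0.05 when the change exceeded 1.5-fold. A gene was read at its brightest tested probe set. The script was tested on simulated data. The rule for naming genes gave every mouse's value for receptors that passed at an unadjusted p, whose groups did not overlap or that had one of the 2 smallest p in their role group, which named 6; the other 24 tested receptors were described after their values were seen. The receptors and all gene lists were chosen with earlier results of these data known. Promoters came from RefSeq. Alternatives were other filters, normalizations, priors and tests, array weights, a replicate block, the mean of a gene's probe sets, and leaving out single mice or, added after seeing the data, the 3 arrays with low hybridization controls.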

Additional observations from a re-analysis of the deposited data

Results flagged for a closer look

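Of 60 groups of 4 values, those of 30 receptors in RST and in control mice, 2 held a value far from the other 3, where chance gives about 1 in 20. For Ifnar2, RST mouse 4 stood at 6.54 and the other RST mice at 7.90 to 7.98. For Il1r1, control mouse 1 stood at 2.58 and the other control mice at 3.50 to 3.62.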

How the results depend on the processing

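No receptor passed the adjusted threshold under any alternative run. Over all probe sets, calls were 0 throughout, leaving out single mice included (0 to 0), except for 35 with a trended and robust prior. Receptors lower at an unadjusted p with a 1.5-fold change numbered 2 (12.8% of all genes), against 1 with quantile normalization (Il7r, with 1 higher, Ifnar2; 7.45% of genes lower), 5 with array weights (19.04%), 5 with the replicate block (16.74%), and 1, Csf2rb, without the 3 arrays with low hybridization controls (4.61%). They ranged from 2 to 7 as single mice were left out. The 7, without RST mouse 2, were Csf2rb, Il17ra, Il27ra, Il4ra, Il6ra, Il7r and Tgfbr2, with 20.46% of all genes past the same threshold. Without RST mouse 4, 2 were lower (6.57%) and 2 higher, Il1r2 and Ifnar2. The share of all genes higher is not given for quantile normalization or without RST mouse 4. The receptors called higher there therefore have no background. Replicate numbers did not pair the mice: deviations of same-numbered mice correlated at -0.24, 0.42, 0.046 and 0.20, and the block with replicate number, which raised the count to 5, is a value only.

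The median gene moved to -0.051 with quantile normalization and to -0.58 with scaling to the hybridization controls. The lymphoid median relative to it was -0.061 and moved to -0.23 without a filter, where the myeloid median was -0.087, against 0.16, and the shared one -0.41, against -0.21. The stricter filter gave -0.15, 0.29 and -0.083 for lymphoid, myeloid and shared chains, quantile normalization gave 0.0010, 0.30 and -0.094, and the mean of a gene's probe sets -0.080, 0.050 and -0.12. Array weights gave 0.30 for the myeloid chains. Single mice left out gave -0.13 to -0.010 for lymphoid, 0.021 to 0.34 for myeloid and -0.29 to -0.087 for shared chains.

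Of 583 values of receptors under the alternatives, 544 kept their side of 0 and 39 did not; the cause was not tested. Quantile normalization gave Il18r1 0.072, Il18rap 0.23, Csf2ra 0.25, Csf2rb2 0.10, Il13ra1 0.18, Ifngr1 0.16, Tnfrsf1a 0.24 and Tnfrsf1b 0.0026. Scaling to the hybridization controls gave Il2ra -0.016, Csf3r -0.20 and Il1rap -0.17. Array weights gave Csf2ra 0.094. The mean of a gene's probe sets gave Il18rap 0.20, Il13ra1 0.12 and Tnfrsf1b 0.18. Without the 3 arrays, Il15ra was 0.12, Csf2rb2 0.45, Csf3r -0.091 and Il1rap -0.24. As single mice were left out, Il2rb ran from -1.09 to 0.12, Il15ra from -0.31 to 0.066, Il18rap from -0.32 to 0.17, Csf2ra from -0.26 to 0.059, Csf2rb2 from -0.50 to 0.11, Csf3r from -0.33 to 0.65, Il13ra1 from -0.44 to 0.33, Il1rap from -0.34 to 0.51, Ifngr1 from -0.40 to 0.14 and Tnfrsf1a from -0.45 to 0.12. Dim receptors such as Il2ra and Il1r1 lie near background, which limits what their values can show.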
